A study of Mus musculus with 11 samples.

Results

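The fibrillar collagen chains are the 10 mouse genes Col1a1, Col1a2, Col2a1, Col3a1, Col5a1, Col5a2, Col5a3, Col11a1, Col11a2 and Col27a1, chosen by name. That choice was made with earlier results of these data known. All 10 were found by symbol in both deposited count tables, among 24062 genes in the Ift88 table and 26667 in the Dzip1 table, and all 10 had enough counts to be tested in each. The RNA came from mitral leaflets of the mouse, and the study asked how the leaflet transcriptome differs when a ciliary gene is lost or mutated. In the Ift88 experiment, 3 libraries labelled NfatC1Cre(+) Ift88f/f (knockout) were compared with 2 labelled NfatC1Cre(+) Ift88+/+ (wild type), so the wild-type mice carry the Cre as well. The labels describe these Ift88 libraries as re-analysed. Ift88 encodes a protein of intraflagellar transport, which builds the primary cilium, and the Cre is expressed under Nfatc1, a gene of the endocardium and of valve endothelial cells, so cells outside that lineage keep the floxed gene. In the Dzip1 experiment, 3 libraries of heterozygous Dzip1S14R/+ leaflets were compared with 3 of Dzip1+/+ leaflets, and Dzip1 encodes a protein of the ciliary base. The labels used here do not give the age of the mice or say whether libraries came from separate animals, so a p-value here is set against the spread among libraries, which may be technical.

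Fibrillar collagens are the rope-forming proteins of connective tissue. Each molecule is a triple helix of chains in which glycine recurs at a fixed spacing, and after the end domains are trimmed outside the cell the molecules pack side by side into fibrils. In the mitral leaflet the collagen-rich fibrosa carries the tensile load, and valve interstitial cells are the main source of its collagen. Type I collagen is made of a pair of Col1a1 chains with a Col1a2 chain, and type III of Col3a1 chains alone. Type V (Col5a1, Col5a2, Col5a3) and type XI (Col11a1, Col11a2, with Col2a1 as a partner) sit inside the fibrils and limit their width. Type II (Col2a1) forms the fibrils of cartilage, and Col27a1 forms thin fibrils of its own.

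The repeat that places these genes in 1 family can be read in their transcripts. The longest uninterrupted run of triplets beginning with a glycine codon (GGN) held 337 to 344 triplets in 9 of the 10 genes, in the longest coding transcript of GENCODE M21. Col27a1 was the exception, with a longest run of 217 triplets and 3 runs of at least 10 triplets, against 2 such runs in each of the other 9. The first 90 coding bases of the longest run are printed 5′ to 3′ for the members that the results turn on, with the glycine codons in capitals.
Col1a1: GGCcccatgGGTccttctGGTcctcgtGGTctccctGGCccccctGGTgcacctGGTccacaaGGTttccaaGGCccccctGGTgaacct
Col1a2: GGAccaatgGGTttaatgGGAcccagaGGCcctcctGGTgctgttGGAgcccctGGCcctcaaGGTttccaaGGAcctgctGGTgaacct
Col3a1: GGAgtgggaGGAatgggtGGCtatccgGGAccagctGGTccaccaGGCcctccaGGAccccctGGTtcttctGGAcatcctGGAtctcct
Col5a3: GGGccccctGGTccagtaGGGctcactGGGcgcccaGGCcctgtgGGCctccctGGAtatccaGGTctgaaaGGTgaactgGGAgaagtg
Col27a1: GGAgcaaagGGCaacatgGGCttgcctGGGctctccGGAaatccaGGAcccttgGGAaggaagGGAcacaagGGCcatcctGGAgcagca
The capitals recur at the same spacing in all 5 stretches, whatever the codons between them.

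All coordinates are GRCm38 with GENCODE M21 gene models, and each gene is protein-coding. Col1a1 spans chromosome 11, 94936224 to 94953042, in 51 exons. Col1a2 spans chromosome 6, 4504814 to 4541544, in 52 exons. Col3a1 and Col5a2 are neighbours on chromosome 1, at 45311538 to 45349706 (51 exons) and 45374321 to 45503282 (54 exons). They lie tail to tail, with 24614 bases between them. The other type V genes are apart from these: Col5a1 is on chromosome 2 at 27886425 to 28039514 (66 exons), and Col5a3 on chromosome 9 at 20770050 to 20815067 (67 exons). Col2a1 lies on chromosome 15 at 97975602 to 98004695 (54 exons), Col11a1 on chromosome 3 at 114030540 to 114220718 (67 exons) and Col11a2 on chromosome 17 at 34039437 to 34066685 (64 exons). Col27a1 lies on chromosome 4 at 63214004 to 63334991 (61 exons). The transcripts are long, from 5.10 kb for Col2a1 to 8.41 kb for Col5a1. An antisense transcript, Gm13372, lies inside Col5a1 and holds 442 counts in the Dzip1 table. Whether the counting used strand is not given in the sources used here, so reads of the pair cannot be told apart, but these counts are few beside those of Col5a1.

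Library depth was 23361414 to 53789026 counts in the Ift88 experiment and 75130621 to 93475025 in the Dzip1 experiment. The libraries of the Ift88 table varied far more: the biological coefficient of variation was 87.7%, against 7.85% in the Dzip1 table. The targeted gene Ift88 stood at 6.31 and 21.2 CPM (the count scaled by the library's total) in wild type and at 3.03, 4.12 and 0.428 in knockout, lower in all 3. The level of Dzip1 says nothing on a point mutation and was 27.6 to 32.3 CPM in wild type and 28.0 to 29.5 in S14R/+. All 15 valve interstitial markers had counts in every library. Heart muscle RNA was also present: 18 cardiomyocyte markers summed to 34912 to 67343 CPM in 4 Ift88-table libraries but to 206 CPM in wild-type replicate 2. Wild-type replicate 1 stood apart the other way, with interstitial markers at 1700 CPM against 4996 to 7048 in the other 4, and endothelial markers at 446 CPM against 2399 to 3963. The wild-type group of the Ift88 experiment is thus a pair of unlike libraries, and the members' main values are given without each of them.

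In Ift88 knockout leaflets, transcripts of the type I chains were several times more abundant than in wild type. Col1a1 stood at 33.3 and 49.6 CPM in wild type and at 322, 534 and 275 CPM in knockout. Col1a2, its partner, stood at 145 and 138 CPM in wild type and at 874, 1072 and 771 CPM in knockout. For each chain all 3 knockout values exceeded both wild-type values. The log2 fold change, from edgeR's quasi-likelihood fit with TMM scaling, was 3.08 ± 0.457 (SE) for Col1a1 and 2.53 ± 0.41 for Col1a2, with 3 knockout against 2 wild-type libraries. By that test neither passed 0.05 after Benjamini-Hochberg adjustment over 14244 genes (adjusted p = 0.802 for both, unadjusted p = 0.000455 and 0.000725). DESeq2 called both higher, with an adjusted p of 1.53e-07 for each, and over the refits the adjusted p ran from that value to 1.00 for both genes. The authors' deposited table gives an adjusted p of 1.21e-07 for Col1a1 and 1.09e-07 for Col1a2. The fold changes did not rest on either wild-type library: Col1a1 was at 2.94 without replicate 1 and 3.19 without replicate 2, and Col1a2 at 2.73 and 2.33. Without replicate 1, edgeR called Col1a2 as well (adjusted p = 0.0319), but the spread then comes from the knockout libraries, and the lone wild-type library is assumed to vary like them.

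Col3a1, the type III chain, was the most abundant fibrillar collagen transcript per kilobase in every library. Its level was 360 and 1177 CPM in wild type and 2194, 2631 and 2059 CPM in Ift88 knockout, with no overlap. Among all genes it ranked 465 and 77 by CPM in wild type and 27, 10 and 29 in knockout. The wild-type pair differed more from each other than the knockout libraries did. The log2 fold change was 1.53 ± 0.54 (edgeR, adjusted p = 0.802), and neither edgeR nor DESeq2 (adjusted p = 0.156) called it. It moved with the wild-type library kept, to 0.98 without replicate 1 and to 2.36 without replicate 2.

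Of the type V chains, Col5a3 differed most. Its counts were 0 and 1 in wild type and 173, 344 and 194 in knockout, which is 5.52, 8.54 and 8.30 CPM for the latter. The ratio of pooled counts per depth was 638, with a counting interval (95%) of 114 to 25219 that covers counting error only. edgeR gave an unadjusted p of 0.0015 and an adjusted p of 0.802, while DESeq2 called Col5a3 higher (adjusted p = 2.69e-05), and the adjusted p over the refits ran from that value to 1.00. The authors' deposited table gives an adjusted p of 3.88e-09. Col5a1, which is needed in every common type V molecule, stood at 41.3 and 117 CPM in wild type and at 313, 419 and 183 CPM in knockout. Col5a2, the usual partner of Col5a1, stood at 42.4 and 198 CPM against 372, 401 and 268. Neither gene's groups overlapped, and neither was called: the log2 fold changes were 1.89 ± 0.557 and 1.51 ± 0.613, and DESeq2's adjusted p was 0.0883 and 0.373. Both depended on the wild-type library, as Col5a1 was at 1.40 and Col5a2 at 0.83 without replicate 1 and at 2.58 and 2.73 without replicate 2.

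The cartilage-type chains were scarce in the Ift88 table and varied from library to library. Col11a1, the α1 chain of type XI, had 52 and 3 counts in wild type and 271, 180 and 307 in knockout, which is 1.66 and 0.056 CPM against 8.64, 4.47 and 13.1. Its groups did not overlap, but its log2 fold change of 3.07 ± 1.65 was not called (edgeR adjusted p = 0.820) and went from 2.09 without wild-type replicate 2 to 7.23 without replicate 1. Col11a2, the α2 chain of type XI, had no counts in either wild-type library and 0, 68 and 66 counts in knockout. That is at least 40.1-fold higher over the group, taking 3 counts over the wild-type pair as the floor, though 1 knockout library was at 0 as well. Col2a1 counts came almost wholly from 1 knockout library: 11 and 0 in wild type and 0, 231 and 0 in knockout. Col27a1 had 15 and 11 counts in wild type and 35, 243 and 4 in knockout. Its log2 fold change was 2.61 ± 2.08 with all libraries and 0.74 without knockout replicate 2, which held the highest count of both Col2a1 and Col27a1.

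**Figure D1:**
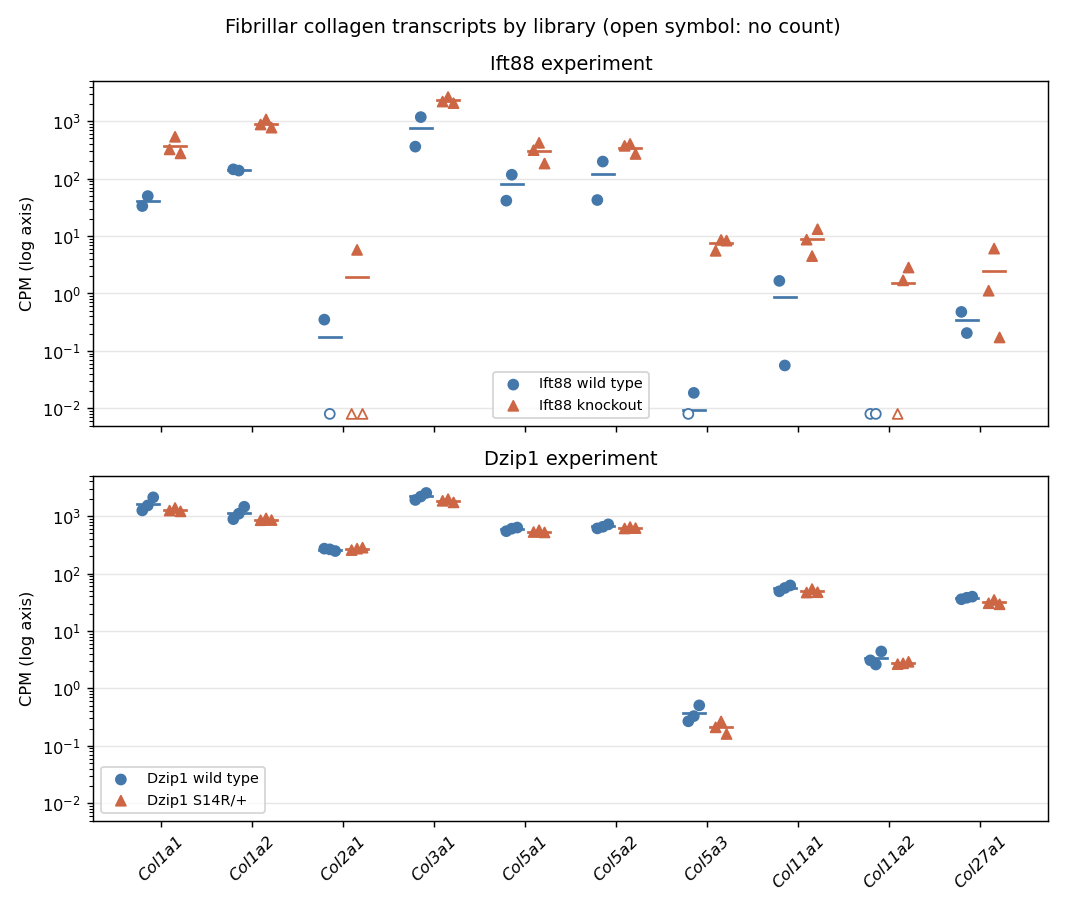
Level of each fibrillar collagen gene in every library, as CPM on a log axis; circles are wild-type libraries, triangles mutant libraries, bars group means, and open symbols libraries with no count. In the Ift88 experiment Col1a1 sits at 33.3 and 49.6 CPM in wild type and at 275 to 534 CPM in knockout, while in the Dzip1 experiment the groups lie close together for every gene.

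Taken as a list, 10 of 10 members had a fold change above 0 in the Ift88 experiment, where 49.4% of all tested genes did. Col5a3 and Col11a2, with 1 and 0 wild-type counts, could pass the count filter only through knockout libraries. Their direction therefore adds no support here or in the counts that follow. For Col2a1 it rested on 1 knockout library. In 7 of the 10 members the lowest knockout value exceeded the higher wild-type value, which held for 15.4% of all genes. The exceptions were Col2a1, Col11a2 and Col27a1. The opposite order, with knockout below wild type, held for no member and for 7.55% of all genes. By edgeR's adjusted p none of the 10 passed, and 0.0% of all genes did. At an unadjusted p under 0.05, 6 members were higher (Col1a1, Col1a2, Col3a1, Col5a1, Col5a2 and Col5a3), against a background of 4.75%, and none was lower, against 1.26%, so that 6.01% of all genes were past it in either direction. DESeq2 called 3 members higher (Col1a1, Col1a2 and Col5a3), against 1.48% of all genes, and none lower, against 0.0492%. Without wild-type replicate 1, edgeR called 1 member higher, Col1a2, against 1.16% of the genes tested then, with 1 wild-type library and the spread taken from the knockouts. The same 3 had an adjusted p under 0.05 in the authors' deposited table, of the 8 members for which that table gives an adjusted p, against 1.36% of its genes. The median log2 fold change of the members was 2.84, and stayed at 2.84 with Col11a2 at the value from its floor, beside -0.01 for all genes. In these bulk samples, more cells of a type and more RNA per cell cannot be told apart.

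Fold change in the Ift88 table also moved with transcript length. In 5 groups of genes of equal size, from the shortest to the longest transcripts, the median log2 fold change was -0.46, -0.22, -0.03, 0.15 and 0.74, and 9 of the 10 members are in the longest group. Among the 2353 genes within the members' own range of length it was 0.64. With this trend removed, the members' median was 2.07 beside -0.08 for all genes. Corrected in this way, the log2 fold change was 2.43 for Col1a1, 2.02 for Col1a2, 1.03 for Col3a1, 0.87 for Col5a1 and 0.82 for Col5a2. In the Dzip1 table the medians of the shortest and longest groups were 0.01 and -0.01.

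**Figure D2:**
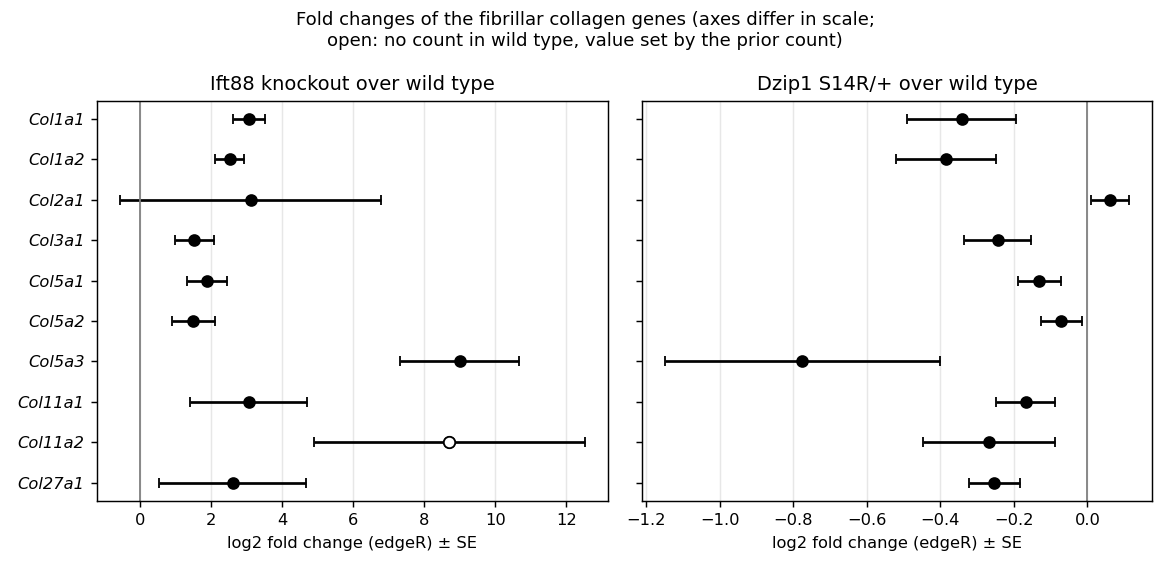
Log2 fold change of each gene with its standard error from edgeR, mutant over wild type, for the Ift88 experiment (left, 3 against 2 libraries) and the Dzip1 experiment (right, 3 against 3); the open symbol is Col11a2, which has no count in wild type, so its value there depends on the prior count. All 10 values are above 0 on the left, and on the right 9 are below 0 while Col2a1 is at 0.06.

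Markers of the cell types of the leaflet were set beside these values. The 15 interstitial markers summed to 1700 and 6674 CPM in Ift88 wild type and to 6262, 7048 and 4996 in knockout. The groups overlapped through wild-type replicate 2. As a ratio to those markers, the summed fibrillar transcripts were 0.367 and 0.252 in wild type and 0.653, 0.721 and 0.716 in knockout. Every knockout ratio was above both wild-type ratios. The 14 endothelial markers (446 and 3963 CPM against 2399 to 3736) and 18 cardiomyocyte markers (67343 and 206 against 34912 to 47155) placed the wild-type libraries on either side of the knockout ones. Of the defining markers, Erg, an endothelial factor, was at 0 in wild-type replicate 1, and Myoz2, a sarcomere protein, in wild-type replicate 2. Knockout replicate 1 also had 1 of the 18 cardiomyocyte markers at 0. The 13 chondrocyte markers in the table summed to 53.1 and 423 CPM in wild type and 169 to 310 in knockout, with 8 and 4 of them at 0 in wild type and 1 to 5 in knockout. The part of cell makeup in the fibrillar result was not tested.

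In Dzip1 S14R/+ leaflets, no fibrillar chain passed the adjusted test, and the differences were small and mostly downward. Col1a1 stood at 1254, 1532 and 2119 CPM in wild type and at 1245, 1381 and 1207 CPM in S14R/+. Col1a2 stood at 884, 1099 and 1453 CPM against 846, 911 and 851. For both chains wild-type replicate 3 was the highest library, and replicate 1 lay within the S14R/+ range. The log2 fold changes were -0.34 ± 0.149 and -0.38 ± 0.137 (edgeR adjusted p = 0.828 and 0.822). Without wild-type replicate 3 they were -0.12 and -0.19, and without wild-type replicate 1 they were -0.50 and -0.54. Col3a1 had the same order, with 1908, 2189 and 2526 CPM in wild type, 1842, 1969 and 1729 in S14R/+ and a log2 fold change of -0.24 ± 0.0922 (adjusted p = 0.822).

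Col27a1 was the member whose Dzip1 groups were best separated. It stood at 35.6, 37.8 and 39.5 CPM in wild type and at 30.3, 34.6 and 29.1 CPM in S14R/+, so that all 3 mutant libraries were below all 3 wild-type libraries. The log2 fold change was -0.25 ± 0.0694, with an unadjusted edgeR p of 0.00457 and an adjusted p of 0.822; DESeq2 gave an adjusted p of 0.269, and the range over all alternatives was 0.201 to 1.00. The fold change of Col27a1 stayed between -0.33 and -0.20 whichever library was left out. Col5a3 was barely present, with 21, 26 and 38 counts in wild type and 18, 24 and 15 in S14R/+. Its groups did not overlap in CPM (0.267, 0.329 and 0.506 against 0.209, 0.265 and 0.160) but did after TMM scaling, and its log2 fold change was -0.78 ± 0.373 (edgeR adjusted p = 0.828).

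The other type V and XI chains differed little between the Dzip1 groups. Col5a1 was at 546, 604 and 632 CPM in wild type and 527, 567 and 519 in S14R/+, a log2 fold change of -0.13 ± 0.0581. Col5a2 was at 610, 651 and 717 CPM against 607, 643 and 617, a log2 fold change of -0.07 ± 0.0566. Both pairs of groups overlapped. Col11a1 was at 49.0, 56.0 and 62.0 CPM against 46.5, 53.5 and 47.2, and Col11a2 at 3.08, 2.61 and 4.39 CPM against 2.64, 2.73 and 2.90. Col2a1 was the sole member with a fold change above 0: it was at 271, 263 and 246 CPM in wild type and 256, 270 and 282 CPM in S14R/+, a log2 fold change of 0.06 ± 0.052 (adjusted p = 0.874). Its groups overlapped, and wild-type replicate 3, the highest library for Col1a1, was the lowest for Col2a1.

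As a list, 9 of 10 members had a fold change below 0 in the Dzip1 experiment, where 50.1% of 16160 tested genes did, and 1 had one above 0, as 49.9% did; the median was -0.25 beside -0.00 for all genes. Every S14R/+ library lay below every wild-type library for 2 members, Col27a1 and Col5a3, against 5.86% of all genes, and the reverse held for no member and for 4.58%. At an unadjusted p under 0.05, 5 members were lower (Col1a1, Col1a2, Col3a1, Col5a1 and Col27a1), against a background of 3.53%, and none was higher, against 2.41%, so that 5.93% of all genes were past it in either direction. After adjustment edgeR and DESeq2 each called no member, and each called 0.0% of all genes, of which 959 had an unadjusted p under 0.05 by edgeR. The median moved to -0.11 without wild-type replicate 3. That library and S14R/+ replicate 2 carried Xist, the transcript of the inactive X chromosome, at 567 and 409 CPM, while the other 4 had at most 0.0509 CPM. Transcripts of 4 Y-linked genes summed to 0 and 0.0221 CPM in the libraries with Xist and to 168 to 197 CPM in those without. The labels do not give the sex. The libraries with Xist were also the highest of their groups for every member, Col27a1 included, except Col2a1 and Col11a2. With the presence of Xist as a covariate, a choice made after seeing the data, Col1a1 was at -0.32 and Col27a1 at -0.26; in the 4 libraries without Xist they were at -0.18 and -0.30.

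The summed levels of some marker lists differed slightly between the Dzip1 groups as well. The 18 cardiomyocyte markers, none at 0, summed to 45108 to 50105 CPM in wild type and 51726 to 52238 in S14R/+, and 16 of the 18 had a fold change above 0. The 12 leukocyte markers summed to 126 to 159 CPM in wild type and 112 to 124 in S14R/+, with 10 of 11 tested below 0 and only Cd3e, a T cell gene, at 0. Interstitial markers summed to 3951 to 4041 CPM against 3866 to 3948, with 12 of 15 below 0. The 13 chondrocyte markers in the table summed to 379.5 to 425 CPM in wild type and 364 to 379.2 in S14R/+. None of these sums overlapped between the groups in CPM, but the interstitial and chondrocyte groups nearly met, at 3951 against 3948 and 379.5 against 379.2. TMM factors differ by more than those gaps: 1.018 in wild-type replicate 3, the lowest wild type there, against 0.9988 and 0.9956 in S14R/+ replicates 1 and 2. The interstitial and chondrocyte sums thus stand apart only before TMM scaling. The part of these shifts in the collagen values was not tested. Endothelial markers did overlap, at 2213 to 2276 CPM in wild type and 2243 to 2274 in S14R/+. The smooth muscle, osteoblast and tendon, red cell and epicardial sums overlapped as well. Summed fibrillar transcripts relative to the interstitial markers were 1.38, 1.59 and 1.97 in wild type and 1.37, 1.48 and 1.37 in S14R/+, which overlap.

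Set per kilobase of transcript, the chains had nearly the same composition in every Dzip1-table library and a different one in the Ift88 table. Types I and III made up 75.3% to 81.5% of fibrillar CPM per kilobase in the Dzip1 table and 84.9% to 89.5% in the Ift88 table. Type V took 13.8% to 17.3% and 10.2% to 15.1%. The cartilage-type chains of types II and XI took 4.29% to 6.91% in the Dzip1 table and at most 0.348% in the Ift88 table. The order of the chains in all 6 Dzip1-table libraries was Col3a1, Col1a1, Col1a2, Col5a2, Col5a1, Col2a1, Col11a1, Col27a1, Col11a2 and Col5a3. The tables differed most plainly in Col2a1, which took 3.63% to 6.17% of the fibrillar total in the Dzip1 table and at most 0.128% in the Ift88 table, and Col1a2 exceeded Col1a1 in every Ift88-table library. The tables were made separately, so a difference between them cannot be told apart from their preparation, and no test was made between them.

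**Figure D3:**
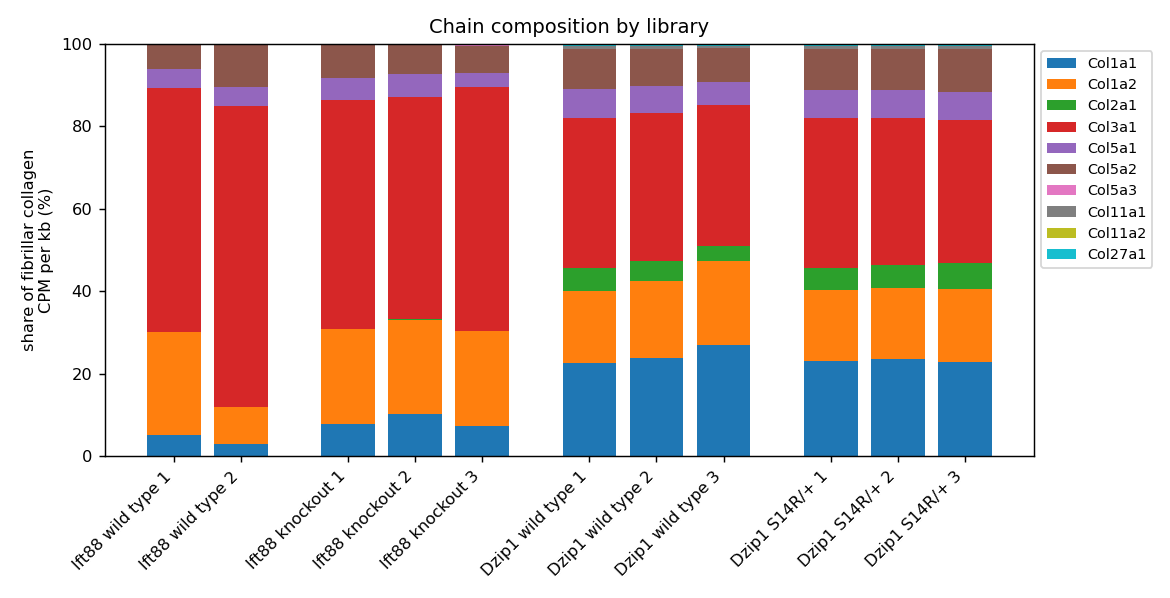
Share of each chain in the summed fibrillar collagen CPM per kilobase, as a percentage, 1 bar per library. Types I and III hold 75.3% to 81.5% in the 6 Dzip1-table libraries and 84.9% to 89.5% in the 5 Ift88-table libraries, where Col2a1 is close to absent.

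Ratios between chains of 1 library do not depend on depth scaling, and 6 were formed in each experiment from counts per kilobase. Col3a1 to Col1a1 was 11.5 and 25.3 in Ift88 wild type and 7.26, 5.25 and 7.99 in knockout, lower in all 3. The difference was -1.34 on the log2 scale (two-sided exact permutation p = 0.1, adjusted p = 0.4 over the 12 ratios), and it was -1.91 without wild-type replicate 1 and -0.78 without replicate 2. Col5a3 to Col5a1 was 0.000529 and 0.000328 in wild type and 0.0243, 0.028 and 0.0626 in knockout, higher in all 3 (difference 6.39, exact permutation p = 0.1, adjusted p = 0.4), with 0.5 counts added to each chain. Wild-type replicate 1 had no Col5a3 count, so its ratio comes from the added 0.5 alone, and the size of the difference depends on that addition. An exact p of 0.1 is the smallest that 3 libraries against 2, or 3 against 3, can give, so no ratio could pass 0.05. The other Ift88 ratios overlapped between the groups: Col1a1 to Col1a2 had a geometric mean of 0.259 in wild type and 0.363 in knockout (exact permutation p = 0.2), a log2 difference of 0.49 that was 0.16 without wild-type replicate 1 and 0.81 without replicate 2. Col5a1 to Col5a2 was 0.597 against 0.664 (exact permutation p = 0.7), and the ratios of Col11a1 to Col5a1 and of Col27a1 to Col1a1 gave an exact permutation p of 0.5 and 0.4.

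In the Dzip1 experiment the ratios were close. Col1a1 to Col1a2 had a geometric mean of 1.28 in wild type and 1.32 in S14R/+, with single libraries between 1.26 and 1.37 (exact permutation p = 0.3). Col3a1 to Col1a1 was 1.46 against 1.54 (exact permutation p = 0.8), and Col5a1 to Col5a2 was 0.710 against 0.680 (exact permutation p = 0.2). Col5a3 to Col5a1 was lower in all 3 S14R/+ libraries (difference -0.62 on the log2 scale, exact permutation p = 0.1, adjusted p = 0.4), on 15 to 38 Col5a3 counts a library. Col11a1 to Col5a1 was 0.0984 to 0.108 in wild type and 0.0969 to 0.104 in S14R/+ (exact permutation p = 0.6), and Col27a1 to Col1a1 was 0.0184 against 0.0191 (exact permutation p = 0.9). In the Ift88 table the type I chain ratio ran from 0.207 to 0.449.

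**Figure D4:**
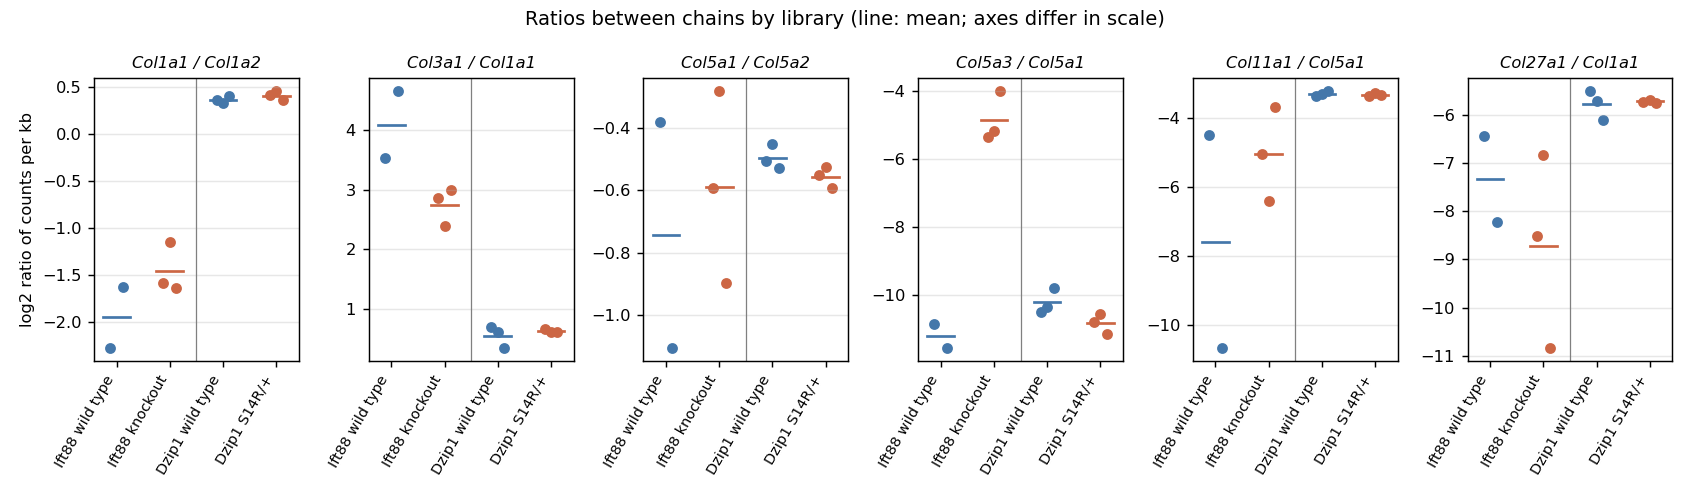
Log2 ratio between chains per kilobase in every library (points) with group means (lines), blue for wild type and orange for mutant; the vertical line divides the experiments and the axes differ in scale. Col3a1 to Col1a1 is lower, and Col5a3 to Col5a1 higher, in all 3 Ift88 knockout libraries than in both wild types.

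Other genes of the collagen pathway were taken from lists by role. By edgeR's adjusted p no gene of any list passed in either experiment, so the 2 genes of each list with the smallest edgeR p are named. DESeq2's calls are given for the Ift88 experiment. Fold changes are edgeR's, also where an adjusted p of DESeq2 stands beside them. Of 26 other collagens tested there, 23 were above 0 (median 1.79) and DESeq2 called 6 higher. Col9a2, a chain of the type IX collagen that coats cartilage fibrils, had no counts in wild type. With 3 counts as the floor there, its pooled counts were 210-fold higher, a value that leaves out the spread among libraries. Col4a2, of basement membrane, had a log2 fold change of 1.93 ± 0.451 (DESeq2 adjusted p = 0.0169). Among 25 genes of procollagen folding and hydroxylation, 14 were above 0 with a median of 0.03, and DESeq2 called none. P4ha3, a prolyl hydroxylase subunit, was at 2.19 ± 0.705 and Sec24d, a coat protein for procollagen export, at 1.06 ± 0.355.

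Of 13 genes for propeptide cleavage and cross-linking, 10 were above 0 (median 0.58) in Ift88 knockout, and DESeq2 called the lysyl oxidases Loxl2 (2.40 ± 0.62, adjusted p = 0.0323) and Loxl1 (1.53 ± 0.402, adjusted p = 0.0398). Of 19 fibril-binding matrix proteins, 17 were above 0 (median 1.13) and DESeq2 called 3. They include the small proteoglycans Fmod, fibromodulin (2.50 ± 0.45, adjusted p = 0.000506), and Bgn, biglycan (1.84 ± 0.39, adjusted p = 0.00187). Among 18 collagen receptors and collagenases 13 were above 0 (median 0.81), with Mrc2, a receptor that takes up collagen, called by DESeq2 (2.96 ± 0.927, adjusted p = 0.0446). The platelet collagen receptor Gp6 had no counts in knockout, and with 3 counts as the floor there its pooled counts were 122-fold lower. Its wild-type libraries were uneven, with a mean of 3.19 CPM and an SD of 3.56, and DESeq2 did not call it (adjusted p = 0.0773). Of 19 transcription factors 15 were above 0 (median 0.71), with Sox5, a partner of Sox9 in cartilage, called by DESeq2 (2.65 ± 0.914, adjusted p = 0.0426) and Tbx20, a valve factor, at 2.02 ± 0.642 and not called.

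These Ift88 list medians moved with the wild-type library kept. Without wild-type replicate 1 and without replicate 2, in that order, the median was 1.87 and 2.59 for other collagens, -0.26 and 0.45 for folding, and 0.85 and 1.56 for cleavage and cross-linking. It was 1.16 and 1.80 for fibril-binding proteins, 0.48 and 0.95 for receptors and collagenases, and 0.83 and 1.01 for transcription factors. With the trend with transcript length removed, the medians were 1.24, 0.03, 0.42, 0.88, 0.26 and 0.07 in the same order, beside -0.08 for all genes.

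In the Dzip1 experiment the same lists held no call by edgeR or DESeq2. Of 30 other collagens 23 were below 0 (median -0.15), and the smallest edgeR p belonged to the type IX chains Col9a1 (-0.24 ± 0.0561) and Col9a2 (-0.22 ± 0.0612). Of 18 fibril-binding proteins 17 were below 0 (median -0.11), and of 13 cleavage and cross-linking genes 8 were (median -0.03). Bmp1, the procollagen C-proteinase, was at -0.19 ± 0.05 and Adamts2, the N-proteinase, at -0.34 ± 0.11. Of 25 folding genes 17 were below 0 with a median of -0.02. The folding genes with the smallest edgeR p were above 0, Leprel1 at 0.15 ± 0.0595 and Glt25d2 at 0.15 ± 0.0633. Of 18 receptors and collagenases 13 were below 0 (median -0.05). Ddr2, a receptor for fibrillar collagen, was at -0.37 ± 0.0947 and Mmp14 at -0.15 ± 0.0505. Of 21 transcription factors 15 were below 0 (median -0.03), with Fli1 at -0.12 ± 0.0611 and Cebpb at -0.22 ± 0.142. The adjusted p-values of these named genes ran from 0.822 to 0.863 by edgeR.

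Over all 11 libraries, each centred on the mean of its table, the 7 members with enough counts in both tables shared a pattern to unequal degree. The correlation of each member with the mean of the 7, which includes it, was 0.989 for Col1a1, 0.987 for Col1a2, 0.909 for Col5a1, 0.853 for Col3a1, 0.802 for Col5a2, 0.752 for Col11a1 and 0.666 for Col27a1. Among 11589 other genes outside the collagen family, the 5 most like that mean were Hnrnph2 (Pearson r = 0.990), Arid5b (0.989), Chrdl1 (0.989), Dusp8 (0.989) and Notch2 (0.988). The libraries share the wide spread of the Ift88 table, which sets most of these values, and they are given as a description.

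RefSeq promoter sequences (GRCm38.p6) matched 7 of the 10 members: Col1a2, Col3a1, Col5a1, Col5a3, Col11a1, Col11a2 and Col27a1. The last 150 bases before the start are printed 5′ to 3′ along the gene for Col3a1, the most abundant chain, and Col5a3, the one with a single count in Ift88 wild type, with CCAAT or ATTGG and TATAAA or TTTATA in capitals.
Col3a1, chr1:45311388-45311537, plus strand: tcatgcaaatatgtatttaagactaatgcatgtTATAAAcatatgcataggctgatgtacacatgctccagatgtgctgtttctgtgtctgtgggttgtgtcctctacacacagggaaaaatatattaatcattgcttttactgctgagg
Col5a3, chr9:20815068-20815217, minus strand: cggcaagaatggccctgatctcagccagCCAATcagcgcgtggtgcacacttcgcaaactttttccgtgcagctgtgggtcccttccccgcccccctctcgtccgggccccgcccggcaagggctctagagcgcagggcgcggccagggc
In the 250 bases before the start, TATAAA on either strand was found in Col3a1 and Col11a2 and in 12.4% of 32851 promoters, and CCAAT on either strand in Col1a2, Col5a3 and Col11a1 and in 33.8%. The motifs do not overlap each other in these windows. The upstream sequence also differed in base composition, from 35.2% GC in Col3a1 to 76.4% in Col5a1. Neither motif was found in Col5a1 or Col27a1.

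**Figure D5:**
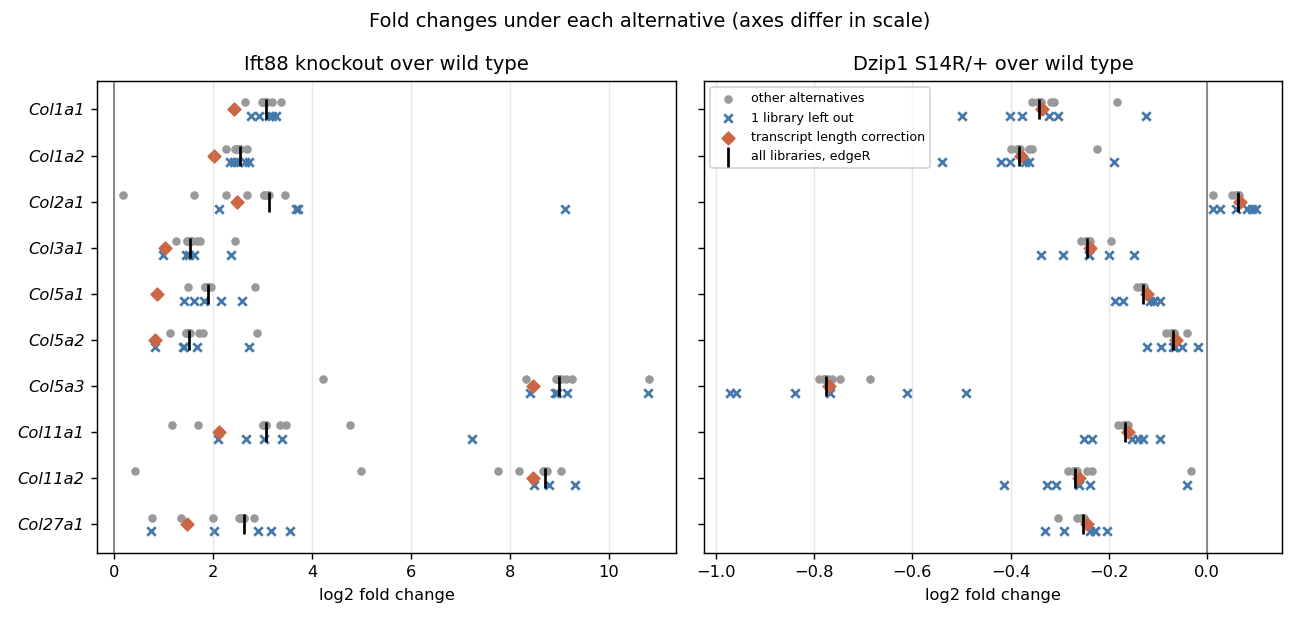
Log2 fold change of each gene with all libraries in edgeR (black bar), with 1 library left out (blue crosses), with the transcript length trend removed (orange diamonds) and under the other alternatives (grey points); left the Ift88 experiment, right the Dzip1 experiment, on different scales. Every Ift88 value is above 0, and in the Dzip1 experiment every value is below 0 for 9 genes and above 0 for Col2a1.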

How the data were processed

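Mitral leaflet RNA was sequenced with SMART-Seq v4 libraries, per the labels' protocols. The submitters' processing notes name FastQC 0.11.5, cutadapt 1.11, HTSeq, DESeq2, DESeq and the builds mm10 and GRCm38. The deposited tables hold whole-number read counts per gene, which were the values analysed. The deposited Ift88 table also gives the authors' mean normalised signal, log2 fold change with its error, test statistic (a score) and p-value. The deposited Dzip1 table does not state the direction of its comparison. The authors' log2 fold changes there had the sign opposite to the S14R/+ over wild-type fit for 10 of 10 members and the same sign for 27.8% of all 16160 tested genes, so they were not used and directions rest on the labelled counts.

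CPM are counts over the library's total. Groups were compared within each table with edgeR 4.0.16 (quasi-likelihood test, TMM scaling, filterByExpr, Benjamini-Hochberg adjustment over all tested genes, threshold 0.05) in R 4.3.3. DESeq2 1.42.0, limma-voom 3.58.1, other scalings and filters, a lowess correction for transcript length (span 0.3) and leaving out each library were alternatives. Printed log2 fold changes are edgeR's unless another source is named, also beside an adjusted p of DESeq2. Their SE was derived as the size of the fold change over the square root of edgeR's F statistic. Chain ratios used exact two-sided permutation over libraries. Levels between genes are per kilobase of the longest coding transcript. The members and lists were chosen with earlier results of these data known. All members are named, and of each list those past edgeR's threshold or, as none passed, the 2 with the smallest edgeR p. DESeq2 calls among the markers are named besides.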

Additional observations from a re-analysis of the deposited data

How the results depend on the processing

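Each experiment was set against 16 alternatives, which were refits apart from the authors' deposited table of the Ift88 experiment. All fold changes of the 10 members kept their direction in both experiments under every alternative that tested them; Col11a2 and Col2a1 could not be tested without Ift88 knockout replicate 2 or at a mean count of at least 50, Col11a2 not without knockout replicate 3, and Col5a3 of the Dzip1 table not at that mean count. In the Ift88 experiment edgeR called 0 members, DESeq2 called 3 and so did the authors' deposited table (3 members); leaving out 1 library gave 0 to 1, the 1 being Col1a2 without wild-type replicate 1. Over all genes edgeR called 0 (856 at an unadjusted p under 0.05), DESeq2 218, and edgeR 187 without wild-type replicate 1. The cause of these differences was not tested. Wild-type replicate 1 and knockout replicates 1 and 2 share a title prefix (IR28N) whose meaning the labels do not give. With presence of the IR28N prefix as a covariate, the members' median was 2.36 and Col27a1 was at 1.34. That fit put wild-type replicate 2 and knockout replicate 3 in 1 class, though their titles carry prefixes unlike each other. Within the IR28N libraries, with 1 wild type, the median was 2.77, Col3a1 was at 2.44, Col5a1 at 2.84, Col5a2 at 2.89 and Col11a1 at 1.69. The members' median log2 fold change was 3.24 without wild-type replicate 1, 2.47 without replicate 2 and 2.01 without knockout replicate 2 (8 members tested). Scaling by total counts moved the median of all genes from -0.01 to 0.10 and the members' median to 3.01. In the Dzip1 experiment no alternative called a member, and the median ran from -0.31 to -0.11 with 1 library left out.

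With 1 library left out, the log2 difference of 4 chain ratios changed sign in part of the fits. It ran from -0.21 to 0.52 for Col5a1 to Col5a2 and from -0.55 to 5.64 for Col11a1 to Col5a1 in the Ift88 experiment. In the Dzip1 experiment it ran from -0.028 to 0.15 for Col3a1 to Col1a1 and from -0.11 to 0.19 for Col27a1 to Col1a1; the negative values are those without wild-type replicate 3. The Ift88 difference for Col5a3 to Col5a1 was 7.77 with 0.1 counts added and 4.90 with 2. No paired analysis was possible because the groups compared share no replicate numbers in the labels.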

Other observations

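Marker lists outside the comparisons are given as values. In the Ift88 experiment edgeR called no marker of any list. DESeq2 called Npr3, a natriuretic peptide receptor of valve endothelium, among 14 endothelial markers (log2 fold change 2.75 ± 0.407, adjusted p = 1.48e-06), and the interstitial markers Pdgfrb (1.64 ± 0.381, adjusted p = 0.0243) and Vcan, versican (2.41 ± 0.618, adjusted p = 0.0222). It also called Spp1, osteopontin (4.61 ± 1.59, adjusted p = 0.0426), and Fmod among osteoblast and tendon markers and Col9a2 among chondrocyte markers. Genes without counts in wild type that DESeq2 called were the epicardial markers Upk3b (838-fold higher, adjusted p = 2.66e-05) and Lrrn4 (292-fold, adjusted p = 0.0224). The leukocyte marker Itgam was another (97.5-fold, DESeq2 adjusted p = 0.0157). Each fold is of pooled counts, with 3 counts over the wild-type group as the floor, and leaves out the spread among libraries. The knockout libraries were uneven for these genes: Upk3b had a mean of 23.6 CPM with an SD of 38.6, and Lrrn4 8.93 with 10.7. For Itgam the mean and SD were 4.12 and 3.87, and for Spp1 13.4 and 17.7. Epicardial markers summed to 33.0, 325 and 79.6 CPM in knockout and to 84.3 and 25.8 CPM in wild type. Median log2 fold changes of the tested markers were 0.71 for interstitial, 0.73 for endothelial, 0.17 for cardiomyocyte, 1.04 for chondrocyte, 2.50 for osteoblast and tendon, 0.68 for smooth muscle, 0.86 for leukocyte, -1.61 for red cell and platelet and 1.78 for epicardial genes. Several turned on the wild-type library kept: without replicate 1 and without replicate 2, in that order, the median was 8.81 and -0.82 for cardiomyocyte, -0.16 and 2.72 for endothelial, 0.68 and 4.85 for chondrocyte, -2.16 and 0.77 for red cell and platelet, 0.60 and 1.86 for interstitial, 1.81 and 0.29 for smooth muscle, 0.07 and 1.37 for leukocyte, 4.33 and 2.43 for osteoblast and tendon, and 3.23 and 1.93 for epicardial genes. In the Dzip1 experiment the medians were -0.12, -0.00, 0.10, -0.10, -0.07, -0.01, -0.25, -0.78 and -0.08, from interstitial to epicardial as first listed, and neither tool called a marker. Pdgfrb had the smallest unadjusted p there of the interstitial list (-0.19 ± 0.0385, DESeq2 adjusted p = 0.0758).

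The cartilage-linked chains had different levels in the tables. Col2a1, Col11a1 and Col27a1 were at 246 to 282, 46.5 to 62.0 and 29.1 to 39.5 CPM in the Dzip1 table. In the Ift88 table they were at 0 to 5.74, 0.056 to 13.1 and 0.171 to 6.03 CPM. Acan, the cartilage proteoglycan aggrecan, had no counts in Ift88 wild type and 132 over the knockout libraries.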
